A study of Saccharomyces cerevisiae with 1 sample.

Results

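Domain IV of the 25S rRNA was taken as nucleotides 1881 to 2360 of the deposited pileup, which are 480 of the 3396 nucleotides of RDN25-1, the gene of the large rRNA of the yeast 60S subunit. The members were set by position, and the region was chosen with earlier results of these data known. The data come from 1 CRAC library of BY4742, a laboratory strain of Saccharomyces cerevisiae that carries no tagged protein. CRAC uses UV light to link a tagged protein to the RNA it touches in living cells, and sequences the fragments that stay bound through a stringent purification. In BY4742 nothing was tagged, so these fragments are the background of the purification. Cells were grown with glucose in YMM lacking tryptophan to an OD of 0.6, and the cDNA was amplified in 16 PCR cycles. Samples with a tagged protein were not used here. A hit is 1 fragment covering 1 nucleotide, given per 100000 reads. A change is a substitution or a deletion in a fragment at that nucleotide. With 1 library there were no replicates, the total number of reads was unknown, and neighbouring nucleotides share fragments, so no test was run and every comparison in this section is a description of this library.

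Domain IV lies at the interface between the ribosomal subunits. Its helix H69 reaches into the small subunit and touches the decoding centre, and its helix H63 carries expansion segment ES27, a long arm that differs in length between eukaryotes. Box H/ACA snoRNAs such as snR3 guide the conversion of uridines to pseudouridines in this domain, and box C/D snoRNAs such as snR13 guide ribose methylations. In CRAC, an amino acid left on a cross-linked nucleotide can make the reverse transcriptase misread or skip it, and some methylated bases are misread as well. Errors of reverse transcription, PCR, sequencing and alignment also give changes, and PCR copies carry one error into many hits, so a change is not by itself a sign of an altered nucleotide. The numbering was checked against 22 modified nucleotides known from textbooks in this domain, and the base in the pileup matched at all 22.

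In RefSeq's R64 assembly, the build named in the submitters' processing notes, RDN25-1 lies on the minus strand at chrXII:451786-455181 and domain IV at chrXII:452822-453301. The 25S gene is repeated, and RefSeq lists 2 copies in this assembly, which need not be all copies in the genome. A read cannot be assigned to any 1 copy from these values. The stretch that carried most of the hits covers nucleotides 2138 to 2216 (chrXII:452966-453044) and was 40.5% G and C. It is shown because all of the heavily covered nucleotides of the domain, and those with the most changes by count, lie in it. A second stretch, nucleotides 2252 to 2285 (chrXII:452897-452930), holds nucleotides of H69 and H70 and is shown for the changes and modifications described further on. Capitals mark nucleotides changed in at least 5% of at least 100 hits, and T stands for U.
Nucleotides 2138 to 2216: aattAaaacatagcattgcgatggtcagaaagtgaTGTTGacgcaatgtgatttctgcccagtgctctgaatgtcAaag
Nucleotides 2252 to 2285: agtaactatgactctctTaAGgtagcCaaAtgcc

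Domain IV held 14.0% of the hits of the 25S rRNA on 14.1% of its nucleotides, but 40.6% of its changes. Without the highest peak of the 25S rRNA, which lies in domain V, these shares were 35.4% of hits and 62.8% of changes. The 2 kinds of change were divided unequally. Of all deletions in the 25S rRNA, 66.9% lay in domain IV, against 26.5% of all substitutions. Deletions made up 57.4% of the changes of domain IV and 19.4% of those in the rest of the 25S rRNA. Pooled over the domain, 3.15 of 100 hits carried a change, against 0.749 in the rest. Domain V had a like share of the changes (40.6%) but 64.4% of the hits and 18.0% of the deletions. In the other 4 domains the share of deletions lay between 3.32% in domain II and 4.13% in domain VI.

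**Figure D1:**
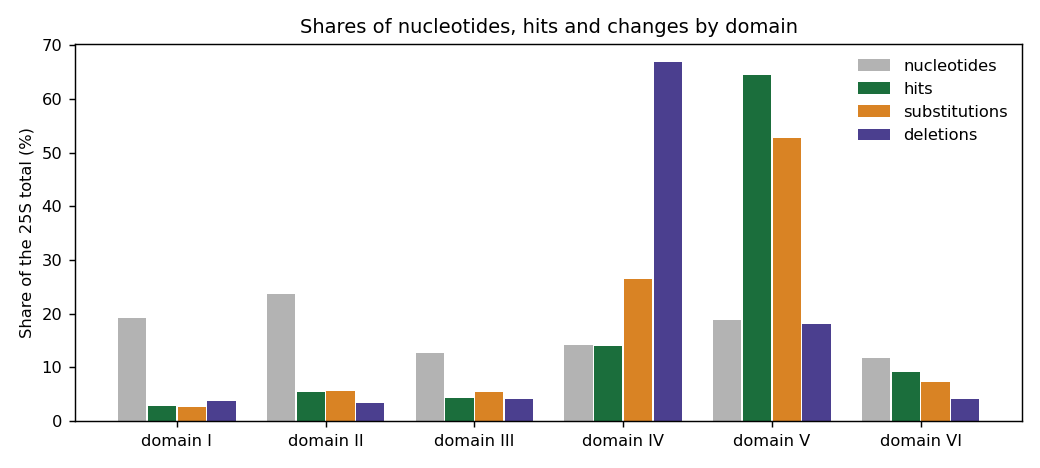
Bars give the share of all 25S nucleotides, hits, substitutions and deletions (percent, vertical axis) that lies in each of the 6 domains in the 1 control library. Domain IV has 14.0% of the hits and 66.9% of the deletions, while domain V has 64.4% of the hits.

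Hits within the domain were concentrated in 1 peak. Nucleotides 2138 to 2216, the unbroken run with at least 10% of the maximum, made up 16.5% of the domain and held 94.3% of its hits and 97.5% of its changes. The mean was 1527 hits per nucleotide over domain IV, against 1550 in the rest of the 25S rRNA and 473 in that rest without its highest peak. Its median of 78.5 hits was the lowest of the 6 domains, against 195 in the rest. Hits were at least 10 times the 25S median of 170 at 76 of the 480 nucleotides (15.8%), where the whole 25S rRNA had 9.28% of such nucleotides, and all 76 lay in the peak. At the other extreme, 242 of the 480 nucleotides (50.4%) had hits under the first quartile of the 25S rRNA, against 24.6% over the whole 25S rRNA, and none of these lay in the peak. The domain thus combined a stretch of high hits with long stretches of low ones.

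**Figure D2:**
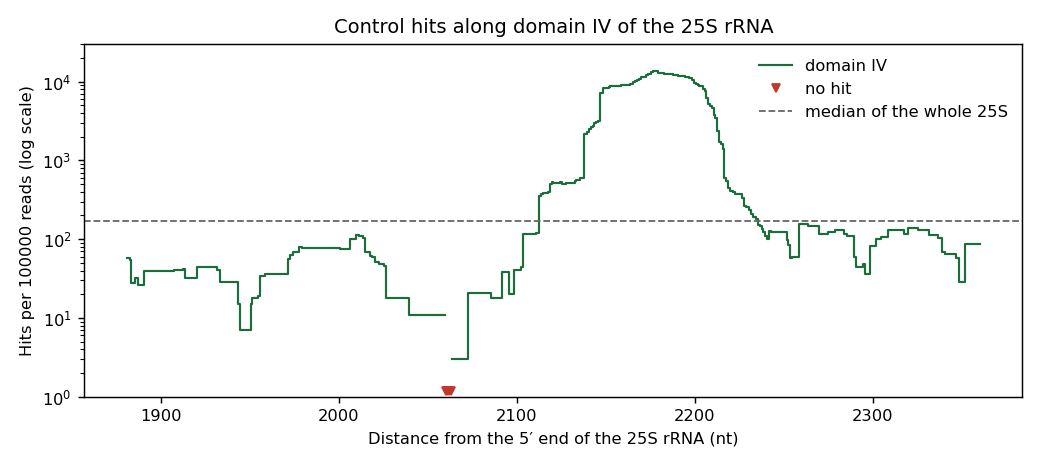
The line gives hits per 100000 reads (log scale) against the distance from the 5′ end of the 25S rRNA for the 480 nucleotides of domain IV, with triangles for nucleotides without a hit. The peak stands far above the 25S median of 170 hits (dashed), and most of the domain outside it lies below that median.

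The peak reached 13435 hits at A2178, which was 79.0 times the 25S median. At 50% of this height it was 60 nucleotides wide, from 2147 to 2206. It was 66 nucleotides wide at 25%, from 2147 to 2212, and 79 at 10%. At least 90% of the maximum was held over the 17 nucleotides from 2173 to 2189. The edges at 50% lay 31 nucleotides before and 28 nucleotides after the maximum, so by this measure the peak was nearly symmetric.

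The 5′ edge was built from a few large steps. A step between neighbouring nucleotides is the net number of fragments that start or end there. Hits rose from 594 at T2137 to 2186 at A2138, from 3204 at C2146 to 7075 at A2147, and from 7114 at T2148 to 8273 at A2149. The step at A2147 alone was 3871 hits, or 28.8% of the maximum. Hits then grew slowly along a shelf, from 8273 at A2149 to 9302 at G2165, before a second climb with steps of 607 at A2166, 635 at T2170, 707 at T2173 and 1072 at T2176. Of the 41 upward steps in the peak, the 3 largest made up at least 50% of the summed rise and 9 made up at least 80% of it.

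The 3′ edge was more spread out. The largest fall, 1580 hits, came after G2206 and was 11.8% of the maximum. Further falls of 1093 hits after C2212, 1015 after G2199, 989 after A2207 and 901 after G2210 made a staircase down to 1399 hits at G2216 and 603 at T2217. The peak had 39 downward steps, and 7 of them were needed for 50% of the summed decline and 15 for 80%. The largest step up and the largest fall bounded a stretch of 60 nucleotides, which was the same stretch as at 50% of the maximum. The authors' methods list a length option of 50 for these pileups. A pileup does not show whether any fragment spanned the whole stretch, so its width is not a fragment length. Within the peak, 35.0% of the summed rise came right after a C and 35.2% right after a T, whereas G preceded the greatest share of the summed decline (34.4%). In the rest of the 25S rRNA, C preceded 68.8% of the rise and T 25.1%, and G preceded 40.7% of the decline. These shares rest on few large steps: the single step at A2147 gave 3871 of the 4490 hits of rise after C in the peak, and the step at nucleotide 2540 gave 29143 of the rise in the rest. Counted by steps, C and T preceded 4 and 12 of the 41 rises in the peak. Of the falls up to nucleotide 2216, G preceded 8, A 10, C 9 and T 11. The fall of 796 hits after G2216 was left out of these counts and of the shares of decline in the peak. The bound RNA had been partly digested with RNase according to the methods. The part of RNase preference in these edges was not tested.

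**Figure D3:**
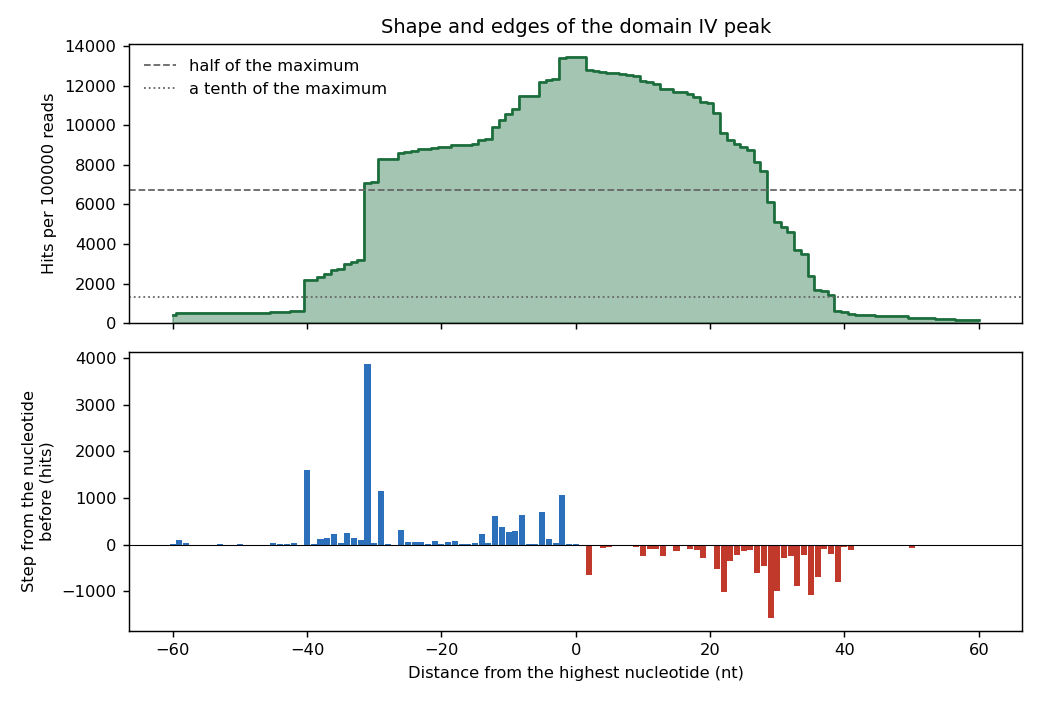
The upper panel gives hits per 100000 reads against the distance from A2178, with 50% and 10% of the maximum as lines, and the lower panel gives the step in hits from the nucleotide before (blue up, red down). A few large steps, the highest of 3871 hits, build the 5′ edge, while the 3′ edge falls in many smaller steps of at most 1580.

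Changes in the peak were concentrated in 5 adjacent nucleotides, T2173 to G2177, a few nucleotides before the maximum. Their kind shifted from one to the next. At T2173, 560 of 12191 hits were substituted and 155 deleted. At G2174, deletions dominated, with 1469 in 12307 hits (11.9%) and 66 substitutions. T2175 carried both kinds, with 5257 substitutions (42.6%) and 3574 deletions (28.9%) in 12351 hits. At T2176, 4751 of 13423 hits were deleted (35.4%) and 32 substituted. G2177 had 2305 deletions (17.2%) and 98 substitutions in 13432 hits. Substitutions thus stood mostly at 1 nucleotide, T2175, and most deletions were spread over 4. Such deletions cannot always be placed, since T2175 and T2176 are identical neighbours.

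These 5 nucleotides held 79.1% of the changes of domain IV and 32.1% of all changes in the 25S rRNA. Their 12254 deletions were 61.8% of all 25S deletions, and their 6013 substitutions were 16.2% of all 25S substitutions. The 18267 changes were 1.36 times the highest hits among them, 13432. Part of the fragments must therefore have carried more than 1 change there. Hits did not dip at the deleted nucleotides, so fragments with a deletion were counted as covering it. Without these 5 nucleotides, domain IV would hold 12.5% of the remaining 25S changes, close to its share of nucleotides.

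The cluster had sharp borders. In the 10 nucleotides on its 5′ side the highest share of changed hits was 0.817%, at G2165. On its 3′ side it was 1.84%, at A2178, where 203 of 247 changes were deletions, and C2179 had 0.811%. Over the other 74 nucleotides of the peak, 0.680 of 100 hits were changed when pooled, and the median nucleotide had 0.465%.

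**Figure D4:**
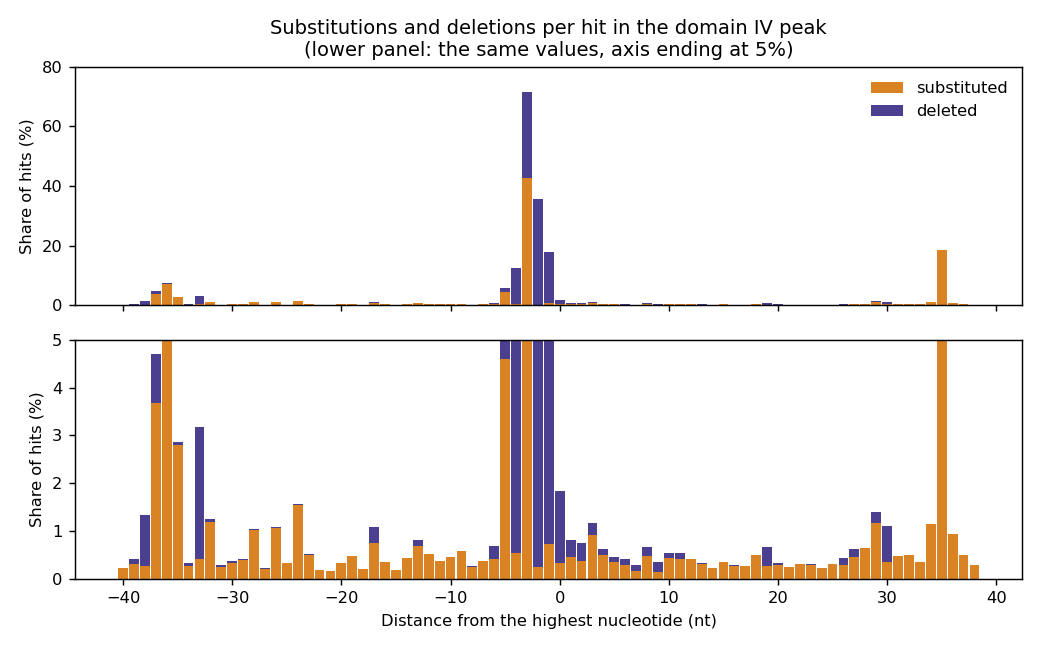
Stacked bars give the percent of hits substituted (orange) and deleted (purple) at each nucleotide of the peak against the distance from A2178, with the lower panel cut at 5%. The changes stand in the 5 nucleotides just before the maximum, reaching 71.5% at T2175, with smaller groups near both edges.

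Both edges of the peak had a changed nucleotide of their own, made almost entirely of substitutions. At the 5′ edge, A2142 was substituted in 197 of 2684 hits and deleted in 2 (7.41%). A2142 is known as the 1-methyladenosine that the methyltransferase Bmt2 makes in H65, and this methyl group sits on the face of the base that pairs. Its neighbours T2141 (4.70%) and A2143 (2.87%) were changed less often, and A2145 had 86 deletions and 13 substitutions in 3110 hits. At the 3′ edge, A2213 had 441 substitutions and no deletion in 2391 hits (18.4%), while the next adenines had 0.947% (A2214) and 0.500% (A2215). A2213 lies on the staircase of the 3′ edge, with a fall of 701 hits right after it. Whether these substitutions lay at the ends of fragments was not tested.

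Among the nucleotides with at least 100 hits, 20 of 224 in domain IV were changed in at least 5% of hits (8.93%), against 6.07% over the whole 25S rRNA. Of these 20, 7 lay in the peak and 13 outside it. T2175 had the highest share among all 2374 such nucleotides of the 25S rRNA, and T2176 the fourth highest. The nucleotides between them in this order were C1846 in domain III (57.1% of 823 hits) and A327 in domain I (54.4% of 169 hits), both with far fewer hits. Of the 2916 nucleotides outside domain IV, 44 were needed to make up 50% of the changes there. Of the 480 in domain IV, 2 were needed, and the unlike sizes of the 2 regions enter these counts.

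**Figure D5:**
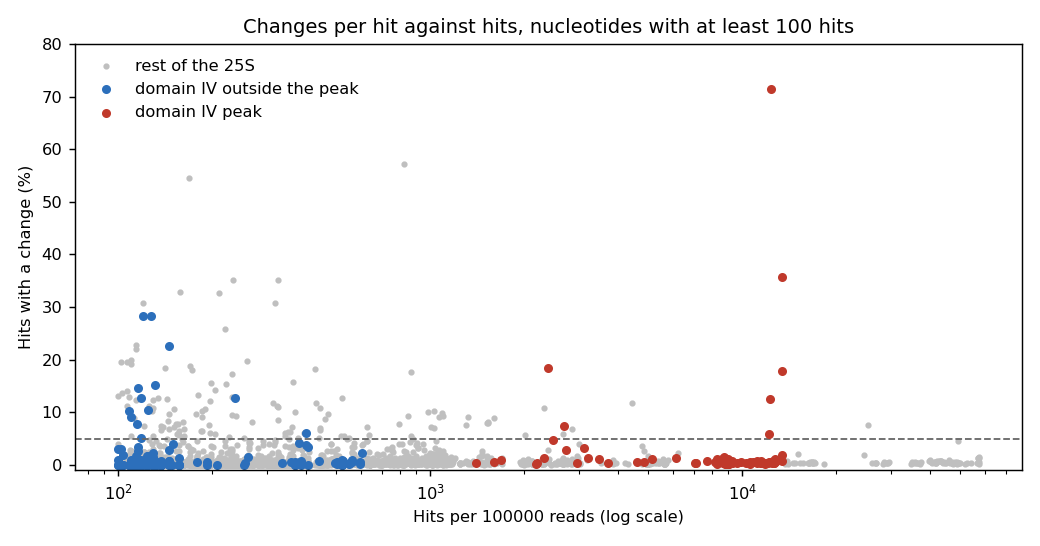
Each point is a nucleotide with at least 100 hits, placed by its hits per 100000 reads (log scale) and by the percent of those hits with a change, with 5% as a dashed line. The nucleotides of the peak (red) include the highest point, 71.5% at T2175, whereas changed nucleotides of domain IV outside the peak (blue) have between 108 and 399 hits.

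The 5′ part of the domain, which includes ES27, had few hits. From nucleotide 1881 to 2103 the median was 36 hits, 0.185 times that of the rest of the 25S rRNA, and the highest value was 113 at T2010. These 223 nucleotides were 46.5% of the domain and had 1.16% of its hits. Nucleotides 2060 to 2063 had no hit, 1 of 3 stretches without hits in the 25S rRNA. The profile was made of long level runs, such as 78 hits at each nucleotide from 1980 to 2000 and 11 hits from 2040 to 2059. Hits changed from one nucleotide to the next at 46 of the 223 positions. Over the whole 25S rRNA hits changed at 43.4% of nucleotides, and over nucleotides 1881 to 2137, all of the domain 5′ of the peak, at 25.7%. Fewer separate fragment ends were therefore seen here, where hits were also low. Of its 68 changes, 67 were substitutions, among them 13 of 45 hits at G1928 and 10 of 41 at T1912, below the minimum of 100 hits.

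A shoulder of 34 nucleotides led from this region to the peak. Over nucleotides 2104 to 2137, hits lay between 115 and 597 with a median of 504. It holds T2129 and T2133, where snR3 guides pseudouridylation, and these were changed in 0.576% and 0.182% of hits. Its most changed nucleotide was G2111, with 34 deletions in 120 hits (28.3%), next to G2110 with 3. G2105 (7.83%) and C2118 (6.02%) were changed by substitutions alone.

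Beyond the peak, nucleotides 2217 to 2360 had a median of 124 hits, 0.636 times that of the rest of the 25S rRNA, with values between 29 and 603. No nucleotide outside the peak was a local maximum, taken as the highest within 20 nucleotides on each side with at least the 25S median of hits. The highest such nucleotide without the lower limit was A2259 in H69, with 157 hits. In this 3′ part, 10 of 103 nucleotides with at least 100 hits were changed in at least 5% of them (9.71%, against 6.07% over the 25S rRNA). A2242, on the 5′ side of H69, had 36 substitutions in 127 hits (28.3%). T2269, in the region of H69, had 32 deletions and 1 substitution in 146 hits (22.6%). It was followed by A2271 with 15 deletions in 118 hits, and by G2272 with 6 substitutions (5.08%). C2231 (12.7%) and G2240 (9.09%) lay between the peak and H69, and C2306 (10.2%) and T2319 (14.7%, all deletions) lay further 3′. In H69, C2257 was substituted in 34 of 59 hits (57.6%), too few to enter the count. Of the 13 changed nucleotides outside the peak, 8 had substitutions alone, 4 had mostly or entirely deletions, and C2231 had 22 substitutions and 8 deletions. Outside the peak 1.37 of 100 hits were changed, against 1.03 in the rest of the 25S rRNA without its highest peak. Among nucleotides with at least 100 hits only, the median share of changed hits was 0.192% there and 0.304% in that rest. Over all nucleotides, 72.1% had no change there and 47.8% in that rest, with median hits of 64 and 186. The higher pooled value thus went with a lower median and with more nucleotides without a change.

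The known modified nucleotides with at least 100 hits were few of each kind, and 6.07% of all such 25S nucleotides were past 5%, so a difference between kinds cannot be read from them. Both base methylations of the domain were past 5%. Besides A2142, C2278 in H70, the 5-methylcytidine made by Rcm1, had 13 substitutions in 125 hits (10.4%). Of the 9 ribose methylations, 6 had at least 100 hits and 1 of these was past 5%. This was A2281, a target of snR13, with 20 substitutions in 131 hits (15.3%), while its neighbour A2280, guided by the same snoRNA, had 1 in 131. C2197, the ribose methylation with the most hits, was changed in 0.672% of 11168. Of the 11 pseudouridines, 7 had at least 100 hits and 0 were past 5%, and 7 are too few to set against the 6.07% of all such nucleotides. The highest was T2264 in H69, a target of snR3, with 4 substitutions in 146 hits (2.74%), and T2191 inside the peak had 0.338% of 11830. Of the 20 changed nucleotides of the domain, 17 were not among the 22 listed modifications, and these included all 5 of the cluster from T2173 to G2177. Only 15 of all 224 nucleotides of the domain with at least 100 hits were listed, so most changed nucleotides would be unlisted in any case.

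Compared with the highest peak of the 25S rRNA, around nucleotide 2551 in domain V, the domain IV peak was lower (13435 against 57549 hits) and, in its 5 clustered nucleotides, more changed. Their widths at 50% of the maximum were 60 and 59 nucleotides, which are widths of the pileup and not fragment lengths. The highest peak had its maximum near its 5′ edge, with its edges at 50% lying 11 nucleotides before and 47 nucleotides after it, and its largest step up was 50.6% of its maximum. In the domain IV peak 3.26 of 100 hits were changed and 58.1% of the changes were deletions, against 0.633 and 12.5% in the highest peak. Without the cluster from T2173 to G2177 the domain IV peak had 0.680, and over all nucleotides of each peak the median was 0.474% against 0.431%, so the excess in the domain IV peak lay in the cluster. Past 5% were 7 of 79 nucleotides in the domain IV peak (8.86%) and 1 of 90 in the highest peak, against 6.07% over the 25S rRNA and 8.97% in domain IV outside the peak.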

How the data were processed

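Barcodes, adapters and low-quality reads were removed by the authors with Flexbar, reads were aligned to the yeast genome with Novoalign (build R64 per the labels), and pileups were made with pyCRAC. Versions were not given in the sources used here. The deposited pileup holds hits, substitutions and deletions per nucleotide of RDN25-1 per 100000 reads, as its header says, in whole numbers. The authors set a limit of 100000 reads for these pileups before they deposited them, so the values were treated as a score and not as counts of the whole library. Depth was unknown and PCR copies are not independent, so no interval or detection limit was given. The deposited snoRNA and RNA class tables were not used.

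The region and the 5 other domains were taken by position. The peak was the unbroken run with at least 10% of the maximum. Shares of changed hits were set side by side where hits reached 100, and a nucleotide past 5% was named, together with those with the most substitutions or deletions, the largest steps and the known modifications. T1912, G1928 and C2257, under 100 hits, were named after their values were seen. The region and lists were chosen with earlier results of these data known. The functions were tested on simulated pileups. Python 3.11.15 was used with pandas 2.3.3 and numpy 2.4.6, and plots were drawn with matplotlib 3.10.9. With 1 library, no comparison was tested. Alternatives covered edges, minimum hits, thresholds and kind of change.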

Additional observations from a re-analysis of the deposited data

How the results depend on the processing

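All values come from 1 library of unknown depth, so a count was called unchanged if it stayed within 1.5 times, and any other value if it agreed to 3 significant digits. Of 35 alternatives, 9 left the value unchanged by this measure. No paired analysis was possible because the untagged control was sequenced as 1 library, and no replicate could be left out.

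The domain's share of hits, 14.0%, was 13.9% and 14.1% with edges 20 nucleotides inward and outward, 14.2% without 50 nucleotides at each end of the 25S rRNA, and 35.4% without the highest peak. Its share of changes, 40.6%, was 26.5% for substitutions, 66.9% for deletions, 40.5% with inward edges and 62.8% without the highest peak. The width of 60 nucleotides was 66 at 25% and 79 at 10% of the maximum. With edges at 50% of the maximum, the peak held 86.3% of the domain's hits in place of 94.3%. The value of 71.5% at the most changed nucleotide was 42.6% for substitutions and 35.4% for deletions. The 3 most changed nucleotides held 69.3% of changes, 63.6% of substitutions and 80.2% of deletions. The 20 nucleotides past 5% were 7 with a minimum of 500 hits, 34 at a threshold of 2%, 12 by substitutions and 8 by deletions. The share over the whole 25S rRNA was taken at the main setting only, so these counts do not compare the domain with it. Outside the peak, median hits relative to the rest, 0.328, were 0.354 with the peak taken at 50% of its maximum, 0.344 without the highest peak in the rest, and 0.0670 with means. Changes per 100 hits there, 1.37, were 1.40 at nucleotides with at least 100 hits and 1.86 with the peak taken at 50% of its maximum. As the median over nucleotides with at least 100 hits the value was 0.192, below the 0.304 of the rest without its highest peak. There was 1 local maximum in place of 0 when maxima needed to be 10 nucleotides apart. Fewer nucleotides enter with a higher minimum, and the cause of the other shifts was not tested.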

Other observations

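The 5 letters of the changed cluster, TGTTG, occur at 7 places in the 25S rRNA, so the same letters could be compared at 6 other places. At 3 of these no change was seen, with at most 135 hits. At nucleotides 411 to 415, 4 substitutions and no deletion were found at 312 to 326 hits. Deletions were found at 2 places near the 3′ end of the 25S rRNA. At nucleotides 3352 to 3356 there were 154, most of them at G3356 with 121 in 1536 hits (7.88%). At nucleotides 3382 to 3386 all 145 stood at T3382, in 2659 hits (5.45%). The highest share of changed hits at the 6 other places was 8.01%, against 71.5% at T2175. Hits at these places were lower, at most 2659.

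Outside the cluster, deletions in domain IV were 0.213 per 100 hits at nucleotides with an identical neighbour and 0.120 at those without one. In the rest of the 25S rRNA these values were 0.147 and 0.143.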
